A study of Mus musculus with 36 samples.

Results

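The UPPL model gives mouse bladder tumours that can be studied in 2 forms, as primary tumours and as tumours grown from the cell line UPPL1541. The 4 tumours derived from that line were compared here with the 9 UPPL primary tumours, and the single UPPL1541 culture was used to say which differences were already present in cultured cells. The libraries were picked by their labelled sample type and tumour name, which gives 14 of the 36 libraries of the series. Per the labels, the line-derived tumours and the primary tumours carried Upk3a-CreERT2, a recombinase driven by the promoter of a uroplakin gene, with p53f/f and the luciferase reporter allele Rosa26LSL-Luc, and were untreated. The genotype label of the culture reads Ctrl, which goes against its name, and its treatment label reads untreated. The 4 line-derived tumours come from 1 line, whose number is that of the primary tumour UPPL1541, so they are not 4 independent lines. The animals' ages, the strain of the hosts and the site where the cells were implanted are not given in the sources used here. A second pair of groups, 2 tumours derived from the line BBN963 and 11 BBN primary tumours, served to ask whether the same difference arose there. BBN is the usual short name of a nitrosamine that causes bladder cancer in mice. The labels give these tumours the genotype Ctrl and the treatment untreated.

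The lining of the bladder is a layered epithelium. Basal cells carry the keratins Krt5 and Krt14, and superficial umbrella cells carry uroplakins, the plaque proteins that seal the surface, under transcription factors that include Pparg, Gata3 and Foxa1. Bladder cancers are commonly sorted by how far they keep this luminal programme or resemble basal and squamous epithelium. A tumour holds, besides its epithelial cells, fibroblasts, vessels and immune cells of the animal, none of which belong to a cultured line.

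RNA sequencing values were deposited for 21705 genes, as RSEM gene estimates scaled by the authors, with the 75th percentile of the values above 0 at 1000 in every library. These are the units of the levels given below. The 14 UPPL libraries held 10.61 to 15.79 M reads, as recovered from the steps between low values. The most frequent low value was 2 to 6 reads in the line-derived tumours, 2 to 17 reads in the primary tumours and 1 read in the culture, so a value listed at 0 in a tumour does not show that the RNA was absent. It was 17 reads in primary tumours UPPL1595 and UPPL1597. Several libraries stood apart from their group. Primary tumour UPPL1694 was low in basal and squamous genes, primary tumour UPPL1612 was high in smooth muscle genes (a mean log2 level of 11.43, against a median of 5.43), and line-derived tumour 3 was high in interferon genes. Line-derived tumour 1 was high in skeletal muscle genes (5.27, against 1.49 to 2.09 in the other line-derived tumours) and in adipocyte genes (5.19, against 2.75 to 3.61).

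Trp53, the tumour suppressor gene that is floxed in these mice, stood at 139, 75.6, 68.3 and 90.5 in the line-derived tumours, against 30.4 at the lowest, 59.8 at the median and 158 at the highest of the primary tumours, and 50.4 in the culture. The groups overlapped, and the difference did not pass (log2 fold change 0.45, SE 0.37, limma adjusted p = 0.39; exact permutation test over samples, two-sided p = 0.306, with 0.0014 the smallest p possible). Its direction depended on scaling, with a log2 fold change of -0.65 under quantile normalization. Reads from exons that stay after recombination still count here, so a floxed gene can keep a level above 0. Upk3a, whose promoter drives the recombinase, stood at 15.5, 56.1, 39.7 and 29.8 in the line-derived tumours, against 0 at the lowest, 668 at the median and 8508 at the highest of the primary tumours, and 93.4 in the culture. That difference did not pass either (log2 fold change -2.12, SE 2.31, limma adjusted p = 0.52; exact permutation p = 0.448), and 2 of the 9 primary tumours were listed at 0.

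Across the 13684 genes tested, 2943 were higher and 921 were lower in line-derived than in primary tumours at a limma adjusted p of 0.05, which is 21.5% and 6.73% of the genes. The split depended on scaling. The same test called 1763 higher (12.9%) and 1804 lower (13.2%) under quantile normalization, and 2209 higher (16.1%) and 1322 lower (9.66%) under median-of-ratios scaling. An edgeR quasi-likelihood fit to the recovered reads called 1450 higher (10.6%) and 1712 lower (12.5%). The median log2 fold change of all genes was 0.35 as deposited and -0.02 under quantile normalization, so each change below is best read relative to that shift. Under all 4 of these scalings, 1248 genes were higher and 892 were lower. Every line-derived tumour lay above every primary tumour in 1880 genes (13.7%) and below in 504 (3.68%). The line-derived tumours were more alike than the primary tumours, with a median SD of log2 values of 0.322 in line-derived and 0.656 in primary tumours. The p-values rest on 1 estimate of spread per gene that these tumours share with the 13 BBN tumours in the fit, and not on these SDs alone. The spread among tumours of 1 line is not that among lines.

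**Figure D1:**
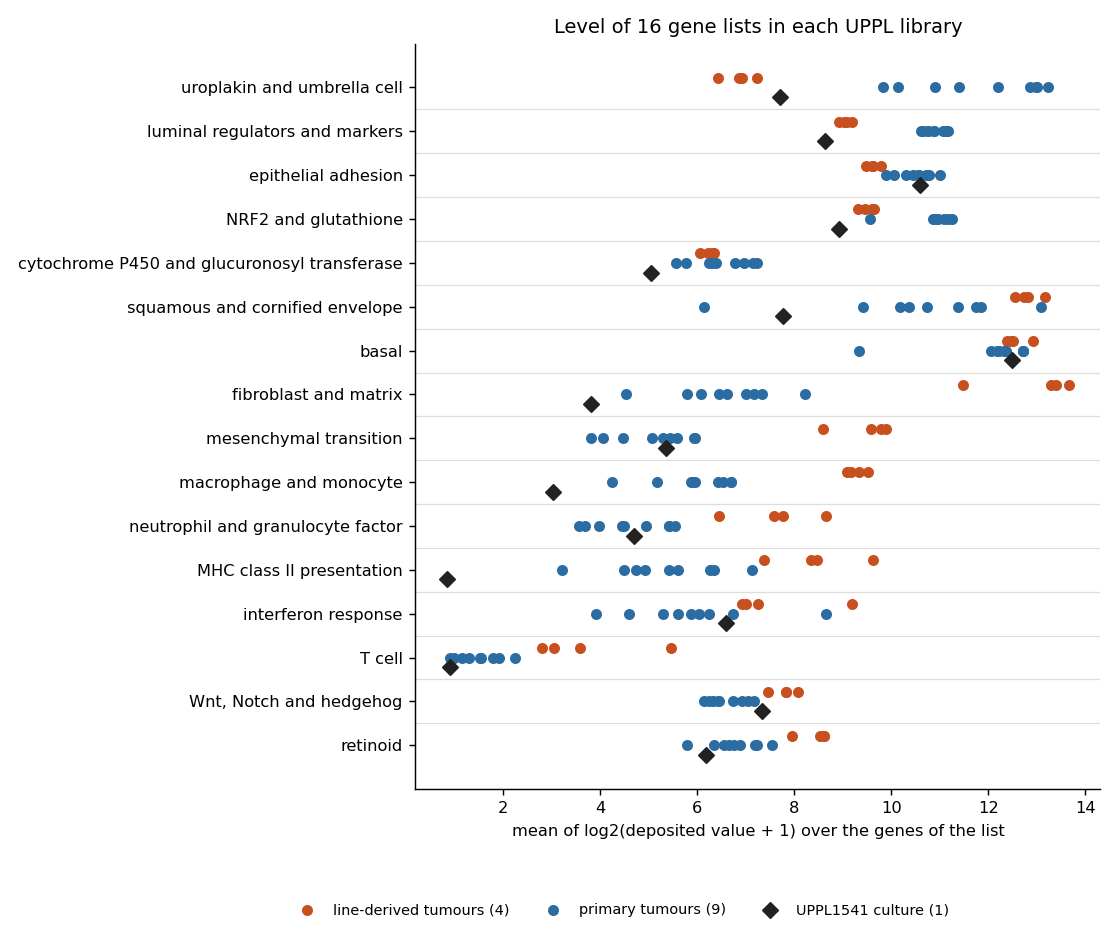
Mean log2(deposited value + 1) over the genes of each of 16 lists (x axis), with 1 point per library: line-derived tumours above, primary tumours in the middle and the culture below. The uroplakin and luminal lists are lower in all 4 line-derived than in all 9 primary tumours, and the fibroblast list is higher, from 11.47 to 13.67 against 4.52 to 8.23.

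The genes of the umbrella cell were lower in the line-derived tumours. Of 12 uroplakin and umbrella cell genes, 12 were tested, 10 fell and 1 rose, where 6.73% of all genes fell (median log2 fold change -4.08, against 0.35 for all genes tested). Upk1b, a tetraspanin of the uroplakin plaque, stood at 4.78, 7.82, 6.21 and 16.7 in the line-derived tumours, against 1561 at the lowest, 13216 at the median and 37628 at the highest of the primary tumours, and 54.2 in the culture. All 4 line-derived tumours lay far below all 9 primary tumours (log2 fold change -10.05, SE 1.504, limma adjusted p = 2.6e-05). Upk3b, another plaque protein gene, was listed at 0 in all 4 line-derived tumours and in the culture, against 453 at the lowest, 2762 at the median and 4372 at the highest of the primary tumours (limma adjusted p = 7.1e-07). Upk1a, the tetraspanin partner of Upk2, stood at 10.8, 32.6, 54.6 and 48.8 in the line-derived tumours, against 166 at the lowest, 5191 at the median and 13824 at the highest of the primary tumours, and 122 in the culture. It fell as well (log2 fold change -6.99, SE 1.42, limma adjusted p = 0.00064), as did Upk2 (log2 fold change -6.84, limma adjusted p = 0.00035) and Snx31, a sorting nexin gene of umbrella cells (log2 fold change -8.63, limma adjusted p = 0.00023).

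The keratins of simple and luminal epithelium followed. Krt18, the type I keratin of simple epithelium, stood at 541, 562, 571 and 486 in the line-derived tumours, against 4161 at the lowest, 10892 at the median and 23745 at the highest of the primary tumours, and 5444 in the culture. Krt19, a keratin of all urothelial layers, stood at 1625, 2545, 3251 and 1903 in the line-derived tumours, against 3953 at the lowest, 28895 at the median and 42356 at the highest of the primary tumours, and 23306 in the culture. In both genes every line-derived tumour lay below every primary tumour, while the culture stood inside the primary range (log2 fold change -4.31, SE 0.72, limma adjusted p = 8.9e-05 for Krt18, and log2 fold change -3.36, SE 0.57, limma adjusted p = 0.00011 for Krt19). Krt8, the partner of Krt18, fell by 3.85 on the log2 scale (limma adjusted p = 0.00056) and Krt7 fell by 2.67 (limma adjusted p = 0.00036). The member that rose was Krt20, a keratin of terminally differentiated urothelium, named after its value was seen. It averaged 4277 in line-derived and 947 in primary tumours and was at 6.54 in the culture (log2 fold change 2.72, limma adjusted p = 0.038), and the call was lost under median-of-ratios scaling (adjusted p = 0.059) and with edgeR (adjusted p = 0.091), with no variance trend, without any 1 of the 4 line-derived tumours and without UPPL1541, UPPL1597 or UPPL1695. The list's mean log2 level was 6.42, 7.24, 6.93 and 6.85 in the line-derived tumours, against 9.82 to 13.23 (median 12.19) in the primary tumours, and 7.71 in the culture. On this scale the labelled bladder tissue of the line-derived tumours carried less of its defining markers than any primary tumour. In bulk tumours fewer cells of a type and less RNA per cell cannot be told apart, nor can more of either, which holds for every list here.

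Luminal transcription factors were lower too. Of 20 luminal regulators and markers, 19 were tested, 11 fell and 1 rose, where 6.73% of all genes fell and 21.5% rose. The median log2 fold change was -1.49, against 0.35 for all genes tested. Pparg, the nuclear receptor that promotes umbrella cell differentiation, stood at 45.4, 23.5, 36.01 and 21.4 in the line-derived tumours, against 1167 at the lowest, 2076 at the median and 3218 at the highest of the primary tumours, and 179 in the culture. The groups were far apart (log2 fold change -6.07, SE 0.88, limma adjusted p = 1.8e-05). Tbx3, a T-box factor, stood at 155, 79.5, 85.7 and 73.8 in the line-derived tumours, against 1114 at the lowest, 1601 at the median and 8528 at the highest of the primary tumours, and 125 in the culture. It fell in all 4 line-derived tumours relative to every primary tumour (log2 fold change -4.32, SE 0.51, limma adjusted p = 1.5e-06). Foxa1, a pioneer factor of luminal urothelium, stood at 427, 279, 369 and 548 in the line-derived tumours, against 1389 at the lowest, 2728 at the median and 4580.4 at the highest of the primary tumours, and 1542 in the culture. Foxa1 was lower in every line-derived tumour (log2 fold change -2.81, SE 0.44, limma adjusted p = 3.9e-05), and the culture stood within the primary range. Gata3, a zinc finger factor of the same programme, stood at 621, 639, 492.9 and 641 in the line-derived tumours, against 1019.9 at the lowest, 1661 at the median and 3893 at the highest of the primary tumours, and 269 in the culture. Its fall was smaller, again with no overlap (log2 fold change -1.49, SE 0.36, limma adjusted p = 0.0032).

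Tmprss2, a surface serine protease gene of luminal epithelium, fell too. It stood at 68.1, 223, 194 and 84.5 in the line-derived tumours, against 2241 at the lowest, 7091 at the median and 20776 at the highest of the primary tumours, and 250.2 in the culture (log2 fold change -5.67, SE 0.65, limma adjusted p = 1e-06). Fabp4, a fatty acid binding protein gene under Pparg in many tissues, averaged 1142 in line-derived and 14733 in primary tumours (log2 fold change -3.68, limma adjusted p = 0.026). Trp63, a p53 family factor of basal cells that the list also holds, was the member that rose (0.69 on the log2 scale, limma adjusted p = 0.037), and its call was lost under median-of-ratios scaling (adjusted p = 0.15) and with edgeR (adjusted p = 0.34), without any 1 of the 4 line-derived tumours and without UPPL1598 or UPPL1695. The luminal level of the list was 9.08, 9.19, 8.93 and 9.02 in the line-derived tumours, against 10.62 to 11.17 (median 10.87) in the primary tumours, and 8.64 in the culture. The culture was below every line-derived tumour. Leaving out line-derived tumour 3 left 7 luminal members lower. Among 22 known PPAR targets, 18 were tested, 4 rose and 5 fell (median log2 fold change 0.13, against 0.35 for all genes tested). These are 22.2% and 27.8% of those tested, where 21.5% of all genes rose and 6.73% fell. Those that fell included Plin4, a lipid droplet coat gene (log2 fold change -7.03, limma adjusted p = 0.00017), and those that rose were led by Lpl, lipoprotein lipase (6.28, 7.5e-05). Cd36, a fatty acid uptake receptor gene of fat cells and macrophages, averaged 259 in line-derived and 9.53 in primary tumours. Cd36 reached 10 in fewer than 4 primary tumours, so its test is not read here. Genes of the adipocyte list were higher beside these. Of the 10 adipocyte genes, 4 were tested and all 4 rose, where 21.5% of all genes rose, and 2 were higher with edgeR. Of the 4, 2 reached 10 in fewer than 4 primary tumours, so their tests are not read here. The other 2 were Lpl and Scd1, too few to set against the share of all genes. Scd1 was above the primary range in the culture, at 8129, and did not pass with edgeR (adjusted p = 0.11). The list's mean log2 level was 5.19, 2.75, 3.03 and 3.61 in the line-derived tumours, against 0.67 to 3.04 (median 1.22) in the primary tumours, and 1.59 in the culture. Line-derived tumours 2 and 3 overlapped the primary tumours. The part of the adipocyte genes in the PPAR target rises was not tested.

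**Figure D2:**
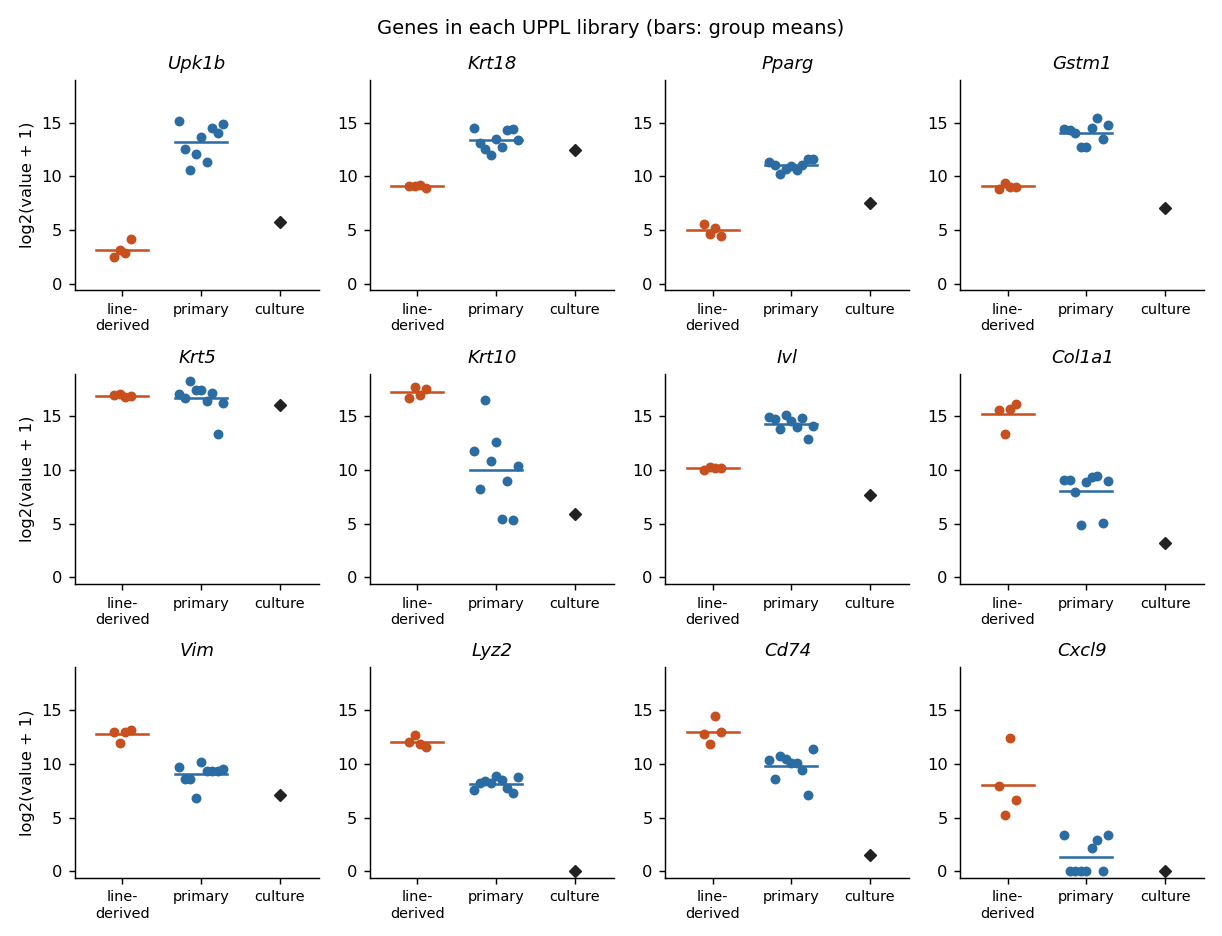
log2(deposited value + 1) of 12 genes (y axis) in the 4 line-derived tumours, the 9 primary tumours and the culture, with 1 point per library and a bar at the mean of each tumour group. Upk1b, Pparg and Ivl are lower and Col1a1, Vim and Lyz2 are higher in every line-derived tumour, Krt5 overlaps between the groups, and Lyz2 and Cxcl9 are listed at 0 in the culture.

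Genes of epithelial adhesion were lower to a smaller degree. Of 21 such genes, 20 were tested, 11 fell and 0 rose, where 6.73% of all genes fell and 21.5% rose. The median log2 fold change was -1.04, against 0.35 for all genes tested. Cdh1, which encodes the epithelial cadherin, stood at 11689, 11902, 10602 and 9795 in the line-derived tumours, against 14553 at the lowest, 24488 at the median and 29389 at the highest of the primary tumours, and 33287 in the culture. The groups did not overlap (log2 fold change -1.01, SE 0.26, limma adjusted p = 0.0048), and the culture stood above every primary tumour. Tjp1, a scaffold gene of the tight junction, stood at 3002, 1576, 1590.5 and 2046 in the line-derived tumours, against 3605 at the lowest, 5874 at the median and 10809 at the highest of the primary tumours, and 4656 in the culture (log2 fold change -1.61, SE 0.25, limma adjusted p = 5e-05). F11r, a junctional adhesion molecule gene, fell (log2 fold change -1.06, SE 0.18, limma adjusted p = 8e-05), and so did Marveld2, which encodes tricellulin (log2 fold change -1.63, SE 0.30, limma adjusted p = 0.00028). Epcam, an epithelial surface adhesion gene, stood at 4730.0, 4664, 3847 and 3965 in the line-derived tumours, against 1717 at the lowest, 3230.3 at the median and 11013 at the highest of the primary tumours, and 16877 in the culture. It overlapped between the groups and did not pass (log2 fold change 0.29, SE 0.40, limma adjusted p = 0.61). The level of the adhesion list was 9.63, 9.78, 9.61 and 9.47 in the line-derived tumours, against 9.89 to 11.00 (median 10.54) in the primary tumours, and 10.60 in the culture. None of the 11 members that fell was below the primary range in the culture.

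Enzymes of glutathione and antioxidant metabolism were lower together. Nfe2l2, or NRF2, is the transcription factor that drives many of these genes by binding antioxidant response elements in their promoters. Of 29 NRF2 and glutathione genes, 28 were tested, 16 fell and 0 rose, where 6.73% of all genes fell and 21.5% rose. The median log2 fold change was -1.14, against 0.35 for all genes tested. Nqo1, a quinone reductase gene, stood at 154, 214, 128 and 159.6 in the line-derived tumours, against 596 at the lowest, 2738 at the median and 4396 at the highest of the primary tumours, and 125 in the culture. It was lower in every line-derived tumour (log2 fold change -3.68, SE 0.79, limma adjusted p = 0.0011). Gstm1, a glutathione transferase gene, stood at 455, 682, 509 and 528 in the line-derived tumours, against 6859.6 at the lowest, 20135 at the median and 44435 at the highest of the primary tumours, and 133 in the culture. It fell as well, with no overlap (log2 fold change -4.97, SE 0.81, limma adjusted p = 6.7e-05). Taldo1, an enzyme gene of the pentose phosphate pathway, stood at 1625, 2283, 1969 and 1683 in the line-derived tumours, against 3704 at the lowest, 5524 at the median and 9141 at the highest of the primary tumours, and 1767 in the culture (log2 fold change -1.67, SE 0.22, limma adjusted p = 6.4e-06).

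Both subunits of the enzyme that makes the first intermediate of glutathione fell. Gclc, the catalytic subunit, stood at 722, 618, 624.5 and 788 in the line-derived tumours, against 1074 at the lowest, 2169 at the median and 3122 at the highest of the primary tumours, and 797 in the culture (log2 fold change -1.42, SE 0.35, limma adjusted p = 0.0033). Gclm, the modifier subunit, stood at 797, 877, 858 and 907 in the line-derived tumours, against 1032 at the lowest, 3299.6 at the median and 6759.6 at the highest of the primary tumours, and 849.7 in the culture (log2 fold change -1.86, SE 0.52, limma adjusted p = 0.0083). Neither gene overlapped between the tumour groups. Me1, malic enzyme, which makes NADPH, stood at 1160.1, 949, 1223 and 1037 in the line-derived tumours, against 2800.2 at the lowest, 4390.3 at the median and 6029.9 at the highest of the primary tumours, and 1298 in the culture. It fell with no overlap (log2 fold change -2.05, SE 0.37, limma adjusted p = 0.00021). Gsta4, a transferase gene for lipid peroxidation products, stood at 7213 to 15719.7 in line-derived against 9855 to 77412 in primary tumours, so that the groups overlapped at primary tumour UPPL1694 (log2 fold change -2.29, SE 0.40, limma adjusted p = 0.00014). Across the list the level was 9.31, 9.64, 9.61 and 9.46 in the line-derived tumours, against 9.55 to 11.25 (median 10.92) in the primary tumours, and 8.93 in the culture, and the lowest primary tumour was UPPL1694. The culture was below the primary range in 11 of the 16 members that fell.

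The promoters of these members were searched for the core of the antioxidant response element, TGACNNNGC, on both strands, in RefSeq windows of 300 bases that run from 250 bases before each annotated start to 50 after it (GRCm38.p6, matched by gene ID). It was present in 6 of the 13 lower members that have a window. It was also present in 19.3% of all 742 lower genes with a window and in 16.8% of the 10804 tested genes with a window. The members were listed for this pathway, and the share among members that did not fall was not worked out. These shares therefore do not link the core to the fall. A match is a description of the sequence and not a binding site. The windows of Me1 and Gclm are shown because both carry the core and both genes fell with no overlap, and they were chosen after their values were seen. Capitals mark the core, which lies on the sense strand in Me1 and on the antisense strand in Gclm.
Me1 (chr9:86695865-86696164, GRCm38.p6, minus strand): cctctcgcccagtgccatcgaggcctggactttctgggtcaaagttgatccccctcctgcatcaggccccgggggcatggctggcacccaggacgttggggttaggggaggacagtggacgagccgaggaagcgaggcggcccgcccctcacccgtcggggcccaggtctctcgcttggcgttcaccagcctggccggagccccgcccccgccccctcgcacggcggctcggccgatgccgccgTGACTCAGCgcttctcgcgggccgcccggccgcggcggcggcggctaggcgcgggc
Gclm (chr3:122245307-122245606, GRCm38.p6, plus strand): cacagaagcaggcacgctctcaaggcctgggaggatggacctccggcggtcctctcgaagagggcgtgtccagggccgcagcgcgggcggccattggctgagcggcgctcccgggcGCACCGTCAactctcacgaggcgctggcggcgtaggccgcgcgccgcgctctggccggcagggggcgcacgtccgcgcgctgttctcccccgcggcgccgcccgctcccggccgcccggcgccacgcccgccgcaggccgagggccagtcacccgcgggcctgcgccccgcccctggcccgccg
The direct repeat bound by PPAR with RXR, which is 2 copies of AGGTCA with 1 base between them, and the Grainyhead element AACCNGGTT were looked for in the same way. Neither was present in the windows of the lower uroplakin, luminal or adhesion members (5, 8 and 9 genes with a window). These elements were rare in general, in 6 and 37 of the 10804 tested genes, and their absence from these windows says nothing of the factors.

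Cytochrome P450 and conjugating enzymes went both ways. Of 20 such genes, 16 were tested, 7 fell and 5 rose (median log2 fold change -1.32, against 0.35 for all genes tested). Of those tested, 43.8% fell and 31.2% rose, where 6.73% of all genes fell and 21.5% rose. Leaving aside the 1 tested member that reached the filter value of 10 in fewer than 4 primary tumours, 4 of 15 rose. Cyp2s1, a P450 of surface epithelia, stood at 306, 256, 96.8 and 117 in the line-derived tumours, against 523 at the lowest, 1829 at the median and 3161 at the highest of the primary tumours, and 595 in the culture (log2 fold change -3.22, SE 0.54, limma adjusted p = 9.4e-05). Fmo5, a flavin monooxygenase gene, fell (log2 fold change -5.26, SE 1.13, limma adjusted p = 0.0011). Cyp26b1, which degrades retinoic acid, stood at 398, 138, 387 and 476 in the line-derived tumours, against 3.06 at the lowest, 29.8 at the median and 225 at the highest of the primary tumours, and 437 in the culture and rose with some overlap (log2 fold change 3.68, SE 0.91, limma adjusted p = 0.0038). Cyp1a1, which detoxifies aromatic hydrocarbons, was listed at 0 in all 4 line-derived tumours and in the culture, with 0 at the lowest, 23.4 at the median and 331 at the highest of the primary tumours. Its call (limma adjusted p = 0.033) was lost in the fit of the 13 UPPL tumours alone (adjusted p = 0.051), without any 1 of the line-derived tumours (0.076 to 0.077) and without any 1 of the primary tumours UPPL1541, UPPL1612, UPPL1694 and UPPL1695 (0.051 to 0.056). Cyp1b1, a relative of Cyp1a1, did not pass (log2 fold change -2.47, SE 0.99, limma adjusted p = 0.062). Leaving out any 1 of the line-derived tumours left 3 members higher and 4 lower, and edgeR called 3 higher and 7 lower.

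The basal keratins Krt5 and Krt14 did not pass the test between line-derived and primary tumours. Of 20 basal genes, 20 were tested, 4 rose and 5 fell (median log2 fold change 0.48, against 0.35 for all genes tested). These are 20% and 25% of those tested, where 21.5% of all genes rose and 6.73% fell. The median was 0.20 without UPPL1694, 0.29 under median-of-ratios scaling and -0.03 with edgeR. Krt5 stood at 129828, 135422, 117621 and 125427 in the line-derived tumours, against 10615 at the lowest, 136487 at the median and 324717 at the highest of the primary tumours, and 67387 in the culture. Krt14 stood at 131577, 184962, 115327 and 134904 in the line-derived tumours, against 2249 at the lowest, 98789 at the median and 236631 at the highest of the primary tumours, and 36994 in the culture. Both keratins overlapped between the groups and did not pass (log2 fold change 0.26, SE 0.56, limma adjusted p = 0.76 for Krt5, and log2 fold change 1.37, SE 0.75, limma adjusted p = 0.17 for Krt14), and the lowest primary tumour in both was UPPL1694. The direction of the Krt5 difference turned without that tumour (-0.15) and with edgeR (-0.41). Genes of contact with the basement membrane came next. Itga6, the integrin of the hemidesmosome, stood at 2301, 1857, 1851 and 1711 in the line-derived tumours, against 2616 at the lowest, 6065 at the median and 12266 at the highest of the primary tumours, and 4919.7 in the culture (log2 fold change -1.68, SE 0.27, limma adjusted p = 6.7e-05), and Lamb3, a chain of the epithelial laminin, at 2602, 1091, 945 and 954 in the line-derived tumours, against 2019.9 at the lowest, 3276 at the median and 5053 at the highest of the primary tumours, and 5667 in the culture (log2 fold change -1.43, SE 0.32, limma adjusted p = 0.0015). Line-derived tumour 1 overlapped the primary tumours in Lamb3.

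Tnc, which encodes the matrix protein tenascin C, was a basal list member that rose. It stood at 20489, 4049.5, 11084 and 13646 in the line-derived tumours, against 35.96 at the lowest, 518 at the median and 892 at the highest of the primary tumours, and 18115 in the culture (log2 fold change 4.90, SE 0.80, limma adjusted p = 6.8e-05). Itgb4 (log2 fold change -1.27, limma adjusted p = 0.0036) and Krt15 (-3.27, adjusted p = 0.0025) also fell. The other members that rose were Krt17, Cdh3 and Trp63, and each of their calls was lost with edgeR (adjusted p = 0.28, 0.22 and 0.34), which left 1 basal member higher and 8 lower. Median-of-ratios scaling gave 2 higher and 7 lower, array weights gave 10 and 8, and leaving out any 1 of the line-derived tumours gave 1 or 2 higher and 4 to 6 lower. The basal level was 12.92, 12.47, 12.39 and 12.51 in the line-derived tumours, against 9.33 to 12.72 (median 12.33) in the primary tumours, and 12.49 in the culture.

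Squamous genes went both ways. Of 25 squamous and cornified envelope genes, 23 were tested, 7 rose and 2 fell (median log2 fold change 1.35, against 0.35 for all genes tested). These are 30.4% and 8.7% of those tested, where 21.5% of all genes rose and 6.73% fell. Leaving aside the 1 tested member that reached the filter value of 10 in fewer than 4 primary tumours, 6 of 22 rose. Such a member was tested with the help of the line-derived tumours in which it is high. The median was 0.55 without UPPL1694 and 0.28 with edgeR. Krt10, the keratin of suprabasal epidermis, stood at 110591, 219561, 127191 and 189795 in the line-derived tumours, against 40.0 at the lowest, 1337 at the median and 96755 at the highest of the primary tumours, and 59.8 in the culture. Every line-derived tumour lay above every primary tumour (log2 fold change 7.21, SE 1.45, limma adjusted p = 0.00057), and with edgeR the log2 fold change was 3.49 and did not pass (adjusted p = 0.056). Krt1, its partner, stood at 117119.5, 198344, 98389.6 and 150374 in the line-derived tumours, against 19.98 at the lowest, 1878 at the median and 82225 at the highest of the primary tumours, and 14.9 in the culture. The order was the same (log2 fold change 6.201, SE 1.93, limma adjusted p = 0.018), and the call was lost with edgeR (log2 fold change 3.28, adjusted p = 0.086) and without line-derived tumour 2 (0.052). Tgm3, a transglutaminase gene of the cornified envelope, stood at 689, 983, 488 and 939.6 in the line-derived tumours, against 0 at the lowest, 1.05 at the median and 6.65 at the highest of the primary tumours, and 0 in the culture (log2 fold change 8.44, SE 1.61). Tgm3 is the member left aside above, so its test is not read here. For Krt10, Krt1 and Tgm3 the culture lay below every line-derived tumour and did not exceed the primary range.

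Ivl and Sprr2a1, both envelope precursor genes, moved the other way. Ivl stood at 1062, 1263, 1191 and 1139.6 in the line-derived tumours, against 7691 at the lowest, 24502 at the median and 35266 at the highest of the primary tumours, and 210.1 in the culture (log2 fold change -4.15, SE 0.48, limma adjusted p = 1.1e-06). Sprr2a1 stood at 4449, 3568, 2968 and 2174 in the line-derived tumours, against 90353 at the lowest, 155806 at the median and 328520.3 at the highest of the primary tumours, and 3267 in the culture (log2 fold change -5.78, SE 0.45, limma adjusted p = 2.7e-09). Neither gene overlapped between the groups, and for both the culture lay below every primary tumour. Dsg1a, a desmosomal cadherin gene of upper epidermis (log2 fold change 7.46, limma adjusted p = 0.00056), and Lgals7, a galectin gene of stratified epithelium (7.76, adjusted p = 0.00076), rose. With edgeR, 3 members were higher and 2 lower, and leaving out any 1 of the line-derived tumours left 3 or 4 higher. The squamous level was 12.73, 13.17, 12.55 and 12.82 in the line-derived tumours, against 6.13 to 13.08 (median 10.73) in the primary tumours, and 7.77 in the culture. The list of skin and hair follicle genes stood at a mean log2 level of 3.03 to 3.51 in line-derived and 1.26 to 3.29 in primary tumours, with 9 of its 13 genes in the table untested for low values. Its part in the squamous result was not tested.

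**Figure D3:**
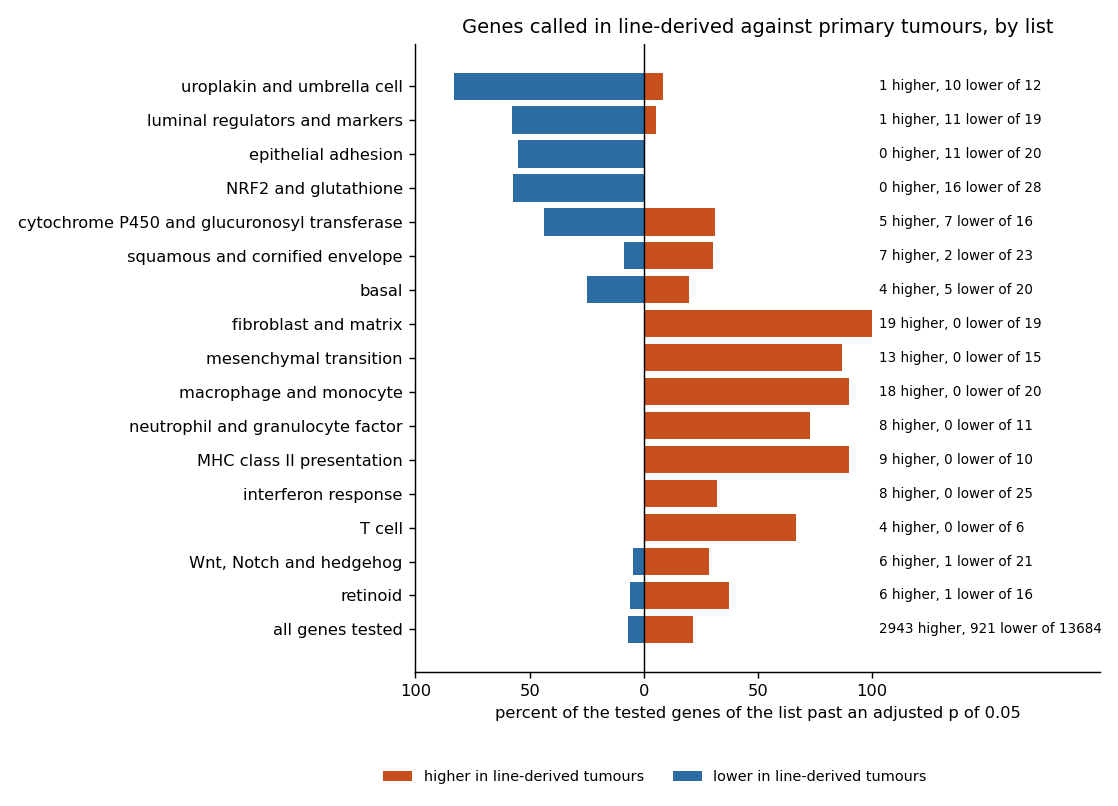
Percent of the tested genes of each list (x axis) that were higher, to the right, or lower, to the left, in line-derived than in primary tumours at an adjusted p of 0.05, with the counts beside each bar. All 19 tested fibroblast and matrix genes were higher and 10 of 12 uroplakin and umbrella cell genes were lower, against 2943 and 921 of 13684 genes in all.

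Fibroblast and matrix genes had the largest median change of the 36 lists. Of 20 such genes, 19 were in the table and tested, and all 19 rose, where 21.5% of all genes rose (median log2 fold change 6.99, against 0.35 for all genes tested). Leaving aside the 2 tested members that reached the filter value of 10 in fewer than 4 primary tumours, 17 of 17 rose. Col1a1, a chain of type I collagen, stood at 49411, 10711, 52982 and 72959.8 in the line-derived tumours, against 28.1 at the lowest, 515 at the median and 701 at the highest of the primary tumours, and 8.40 in the culture. All 4 line-derived tumours were above every primary tumour (log2 fold change 7.12, SE 1.08, limma adjusted p = 3.1e-05). Col1a2, its partner chain, stood at 68873, 20965, 82305 and 110929 in the line-derived tumours, against 7.99 at the lowest, 511 at the median and 1235 at the highest of the primary tumours, and 0.934 in the culture (log2 fold change 7.53, SE 1.16, limma adjusted p = 3.6e-05). Postn, which encodes the matrix protein periostin, stood at 47398, 14688, 59528 and 58689 in the line-derived tumours, against 40.0 at the lowest, 406 at the median and 879 at the highest of the primary tumours, and 73.8 in the culture (log2 fold change 6.99, SE 0.89, limma adjusted p = 3.8e-06). Line-derived tumour 2 was the lowest of its group in each of these genes and in Fbn1, the fibrillin gene (log2 fold change 6.78, SE 0.89, limma adjusted p = 4.7e-06), and Col5a1, a type V collagen gene (log2 fold change 7.68, SE 1.04, limma adjusted p = 7.4e-06). Fap, an activated fibroblast protease gene, averaged 560 in line-derived and 2.30 in primary tumours. Fap is among the 2 members left aside above, so its test is not read here. With edgeR, 18 members were higher.

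The matrix genes were low in the culture. The level of the list was 13.29, 11.47, 13.40 and 13.67 in the line-derived tumours, against 4.52 to 8.23 (median 6.62) in the primary tumours, and 3.80 in the culture, and 4 members were listed at 0 in the culture. Only Fn1 and Sparc of the 19 were above the primary range there.

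The mesenchymal transition list rose as well. Of 15 genes, 15 were tested, 13 rose and 0 fell, where 21.5% of all genes rose and 6.73% fell. The median log2 fold change was 4.03, against 0.35 for all genes tested. Vim, the intermediate filament gene of mesenchymal cells, stood at 8139, 3999, 7817 and 9113 in the line-derived tumours, against 112 at the lowest, 650.3 at the median and 1194 at the highest of the primary tumours, and 139 in the culture (log2 fold change 3.70, SE 0.57, limma adjusted p = 4e-05). Zeb1, a repressor of epithelial genes, stood at 724, 181, 643 and 445 in the line-derived tumours, against 0 at the lowest, 42.7 at the median and 81.6 at the highest of the primary tumours, and 5.60 in the culture (log2 fold change 4.00, SE 1.00, limma adjusted p = 0.004). Cdh11, a cadherin gene of fibroblasts, rose (log2 fold change 6.97, SE 1.16, limma adjusted p = 8.5e-05), as did Prrx1, a homeobox gene of fibroblasts (log2 fold change 4.91, SE 0.65, limma adjusted p = 5.8e-06), and Mmp2, a gelatinase gene (log2 fold change 7.25, SE 1.16, limma adjusted p = 5.8e-05). Snai1, another repressor of epithelial genes, averaged 197 in line-derived and 2.76 in primary tumours and was listed at 0 in the culture. Snai1 reached 10 in fewer than 4 primary tumours, so its test is not read here. The list's level was 9.88, 8.59, 9.58 and 9.78 in the line-derived tumours, against 3.81 to 5.96 (median 5.29) in the primary tumours, and 5.35 in the culture. Fibroblasts carry most of these genes too, and the culture was above the primary range in 4 of the 13 that rose, Fn1, Cdh2, Foxc2 and Twist2. The calls of Foxc2 and Twist2 were lost under quantile normalization (adjusted p = 0.17 for Foxc2 and 0.15 for Twist2) and with edgeR (0.25 and 0.19), and that of Cdh2 with edgeR (0.059). The list had 11 members higher under quantile normalization and 10 with edgeR. Leaving aside the 4 tested members that reached the filter value of 10 in fewer than 4 primary tumours, 9 of 11 rose.

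Macrophage genes were higher. Of 22 macrophage and monocyte genes, 20 were tested, 18 rose and 0 fell, where 21.5% of all genes rose and 6.73% fell. The median log2 fold change was 3.69, against 0.35 for all genes tested. Lyz2, the lysozyme gene of myeloid cells, stood at 4351, 6443, 3782 and 3074 in the line-derived tumours, against 155 at the lowest, 296 at the median and 455 at the highest of the primary tumours, and 0 in the culture (log2 fold change 3.88, SE 0.46, limma adjusted p = 1.3e-06). Csf1r, the receptor on which macrophages depend, stood at 1020.3, 918, 1877 and 1109 in the line-derived tumours, against 15.98 at the lowest, 61.2 at the median and 294 at the highest of the primary tumours, and 360.4 in the culture. It rose with no overlap (log2 fold change 4.24, SE 0.63, limma adjusted p = 2.2e-05), and the culture was above the highest primary tumour. C1qb, a complement gene of tissue macrophages, rose (log2 fold change 3.35, SE 0.42, limma adjusted p = 2.6e-06), and Fcgr3, an antibody receptor gene, rose as well (log2 fold change 3.67, SE 0.44, limma adjusted p = 1.5e-06). Cd68, a lysosomal gene of macrophages, stood at 634, 776, 622 and 385 in the line-derived tumours, against 82.9 at the lowest, 253 at the median and 545 at the highest of the primary tumours, and 124 in the culture and overlapped. Its call (log2 fold change 1.22, SE 0.42, limma adjusted p = 0.032) was lost under quantile normalization (adjusted p = 0.12), median-of-ratios scaling (0.07) and edgeR (0.14) and without line-derived tumour 1 (0.081), tumour 2 (0.11) or tumour 3 (0.08). The macrophage level was 9.33, 9.17, 9.51 and 9.09 in the line-derived tumours, against 4.24 to 6.70 (median 5.95) in the primary tumours, and 3.03 in the culture, and 12 members were listed at 0 in the culture.

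Most neutrophil genes tested were higher, and the genes of factors that attract neutrophils were mixed. Of 14 genes, 13 were in the table, 11 were tested, 8 rose and 0 fell, where 21.5% of all genes rose and 6.73% fell. The median log2 fold change was 3.30, against 0.35 for all genes tested. S100a8, a calcium binding protein gene of neutrophils and stressed keratinocytes, stood at 4663, 15108, 3957 and 4472 in the line-derived tumours, against 7.38 at the lowest, 129.5 at the median and 571 at the highest of the primary tumours, and 4.67 in the culture (log2 fold change 5.86, SE 1.17, limma adjusted p = 0.00056). Csf3r, the receptor of the granulocyte factor, stood at 595, 1213, 399 and 226 in the line-derived tumours, against 0 at the lowest, 9.03 at the median and 52.0 at the highest of the primary tumours, and 0 in the culture (log2 fold change 6.15, SE 1.16, limma adjusted p = 0.00032). Il1b, an inflammatory cytokine gene, rose (log2 fold change 4.06, SE 0.79, limma adjusted p = 0.00044). Line-derived tumour 2 was the highest in all of these, and without it 4 members were higher and S100a9 did not pass (limma adjusted p = 0.078). With edgeR 5 members were higher. Leaving aside the 2 tested members that reached the filter value of 10 in fewer than 4 primary tumours, 7 of 9 rose. Of the attractant genes, Cxcl2 rose (2.73 on the log2 scale, limma adjusted p = 0.01). Cxcl5 rose too (3.77, 0.041), with its call lost under median-of-ratios scaling (adjusted p = 0.054) and edgeR (0.23). Cxcl1 (-0.54, 0.82) and Cxcl3 (1.92, 0.29) did not pass. Csf3, the granulocyte factor itself, stood at 104, 90.0, 60.8 and 81.0 in the line-derived tumours, against 0 at the lowest, 0 at the median and 109.7 at the highest of the primary tumours, and 631 in the culture. The culture was the highest of the 14 libraries in Csf3. This gene is among the 2 members left aside above, so its test between tumour groups (log2 fold change 4.80, SE 1.30) is not read here. With edgeR Csf3 did not pass. The neutrophil list's level was 7.76, 8.65, 7.58 and 6.44 in the line-derived tumours, against 3.56 to 5.54 (median 4.48) in the primary tumours, and 4.70 in the culture.

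Antigen presentation by MHC class II, which is carried by macrophages, dendritic cells and B cells, was higher. Of 11 genes, 10 were tested, 9 rose and 0 fell, where 21.5% of all genes rose and 6.73% fell. The median log2 fold change was 3.40, against 0.35 for all genes tested. Leaving aside the 2 tested members that reached the filter value of 10 in fewer than 4 primary tumours, 8 of 8 rose. Cd74, the invariant chain, stood at 7117, 3799, 22148 and 7969 in the line-derived tumours, against 137 at the lowest, 1108 at the median and 2692 at the highest of the primary tumours, and 1.87 in the culture (log2 fold change 3.204, SE 0.56, limma adjusted p = 0.00014). H2-Aa, a class II chain, stood at 3514, 2364, 10720.3 and 4268 in the line-derived tumours, against 52.9 at the lowest, 576 at the median and 1368 at the highest of the primary tumours, and 0 in the culture (log2 fold change 3.42, SE 0.56, limma adjusted p = 7.5e-05). Ctss, the protease that trims the invariant chain, stood at 4467, 5356, 8704 and 3596 in the line-derived tumours, against 108 at the lowest, 434 at the median and 949 at the highest of the primary tumours, and 0 in the culture (log2 fold change 3.76, SE 0.43, limma adjusted p = 9.7e-07). In all of these genes every line-derived tumour was above every primary tumour and line-derived tumour 3 was the highest. The culture level of the list was 0.83, below the 3.21 of the lowest primary tumour.

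Interferon response genes differed less evenly. Of 25 genes, 25 were tested, 8 rose and 0 fell (median log2 fold change 1.55, against 0.35 for all genes tested). These are 32% and 0% of those tested, where 21.5% of all genes rose and 6.73% fell. Leaving aside the 2 tested members that reached the filter value of 10 in fewer than 4 primary tumours, 7 of 23 rose. The median was 0.74 under quantile normalization and 0.41 with edgeR. Irf1, an interferon-induced transcription factor gene, stood at 1327, 889, 1875 and 916 in the line-derived tumours, against 258 at the lowest, 415 at the median and 681 at the highest of the primary tumours, and 1415 in the culture (log2 fold change 1.43, SE 0.25, limma adjusted p = 0.00017). Cxcl9, which encodes a T cell attractant, stood at 253, 36.5, 5607 and 100.03 in the line-derived tumours, against 0 at the lowest, 0 at the median and 9.57 at the highest of the primary tumours, and 0 in the culture (log2 fold change 6.77, SE 1.26). Cxcl9 is among the 2 members left aside above, so its test is not read here. Line-derived tumour 3 was far above the other line-derived tumours in Cxcl9. Irf8, a factor of myeloid cells, rose (log2 fold change 2.05, SE 0.49, limma adjusted p = 0.0026), and its call was lost under quantile normalization (adjusted p = 0.054). Stat2, a signal transducer of the interferon receptors, did not pass (log2 fold change -0.07, limma adjusted p = 0.93). Without line-derived tumour 3, 3 members were higher. Without tumour 1 or without tumour 4, 4 members were higher. Under quantile normalization 2 members were higher, where 12.9% of all genes were. The interferon list's level was 7.25, 6.93, 9.19 and 7.01 in the line-derived tumours, against 3.92 to 8.66 (median 5.87) in the primary tumours, and 6.59 in the culture, and the highest primary tumour was UPPL1695.

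T cell genes were low in both groups. Of 17 genes, 6 passed the filter on low values. Of these, 4 reached 10 in fewer than 4 primary tumours, so they were tested with the help of the line-derived tumours, and neither their count nor their tests are read here. Cd4, the coreceptor of helper T cells, stood at 46.6, 54.8, 175 and 76.2 in the line-derived tumours, against 0 at the lowest, 3.39 at the median and 28.1 at the highest of the primary tumours, and 0 in the culture. Cd3e, a chain of the T cell receptor complex, was not tested and stood at 8.36, 3.91, 84.4 and 0 in the line-derived tumours, against 0 at the lowest, 0 at the median and 3.00 at the highest of the primary tumours, and 0 in the culture. Il2ra, the receptor chain of activated and regulatory T cells, stood at 39.4, 15.6, 111 and 27.4 in the line-derived tumours, against 0 at the lowest, 0 at the median and 20.4 at the highest of the primary tumours, and 0 in the culture. Icos, a costimulator gene, stood at 10.8, 9.13, 65.8 and 36.9 in the line-derived tumours, against 0 at the lowest, 0 at the median and 50.5 at the highest of the primary tumours, and 0 in the culture. The groups overlapped in Il2ra and Icos, while every line-derived tumour was above every primary tumour in Cd4. The mean level of the 17 genes was 3.59, 3.05, 5.46 and 2.80 in the line-derived tumours, against 0.90 to 2.23 (median 1.52) in the primary tumours, and 0.90 in the culture.

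Among signalling genes, single ligands and inhibitors changed while the list stayed near the share of all genes. Shh, the hedgehog ligand that basal urothelium sends to the stroma, was listed at 0 in all 4 line-derived tumours and in the culture, against 159 at the lowest, 522 at the median and 927 at the highest of the primary tumours (limma adjusted p = 6e-05). Of 24 Wnt, Notch and hedgehog genes, 21 were tested, 6 rose and 1 fell (median log2 fold change 0.53, against 0.35 for all genes tested). These are 28.6% and 4.8% of those tested, where 21.5% of all genes rose and 6.73% fell. The median was 0.35 under median-of-ratios scaling and also without line-derived tumour 1, and turned to -0.09 with edgeR. Leaving aside the 3 tested members that reached the filter value of 10 in fewer than 4 primary tumours, 4 of 18 rose. Sfrp1, a secreted Wnt inhibitor gene, stood at 2293, 2606, 2282 and 2506 in the line-derived tumours, against 0 at the lowest, 4.78 at the median and 1222 at the highest of the primary tumours, and 162 in the culture (log2 fold change 7.45, SE 1.22, limma adjusted p = 7.6e-05). Jag1, a Notch ligand gene, stood at 8876, 7253, 6043 and 6110.2 in the line-derived tumours, against 699 at the lowest, 1723 at the median and 3209.9 at the highest of the primary tumours, and 4179 in the culture (log2 fold change 2.11, SE 0.38, limma adjusted p = 0.00017), and the culture was above every primary tumour. Gli2, a transcription factor of the hedgehog pathway, rose by 5.95 (limma adjusted p = 0.00027). Axin2, a Wnt target gene, stood at 270.0, 66.5, 353 and 276 in the line-derived tumours, against 29.6 at the lowest, 133 at the median and 3229 at the highest of the primary tumours, and 26.1 in the culture and did not pass (log2 fold change 0.31, SE 0.83, limma adjusted p = 0.81), and its direction turned under quantile normalization (-0.36) and edgeR (-1.26). Lgr5, a receptor gene of Wnt-responsive stem cells, is among the 3 members left aside above, so its test is not read here. Its log2 fold change was 4.83 (SE 1.46) and turned to -0.70 with edgeR. Its call was also lost without line-derived tumour 3 or tumour 4. In this gene 5 primary tumours were listed at 0 and UPPL1694 stood at 1644. With edgeR 4 members of the list were higher and 2 lower.

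Single retinoid genes changed, while the list, without the 3 members left aside below, stayed near the share of all genes. Of 17 genes, 16 were tested, 6 rose and 1 fell (median log2 fold change 1.05, against 0.35 for all genes tested, and 0.49 with edgeR). Of those tested, 37.5% rose and 6.2% fell, where 21.5% of all genes rose and 6.73% fell. Leaving aside the 3 tested members that reached the filter value of 10 in fewer than 4 primary tumours, 3 of 13 rose. Crabp1 and Cyp26a1 are among the 3 left aside, so their tests are not read here. Aldh1a1, which makes retinoic acid, stood at 33.5, 29.99, 49.7 and 4.76 in the line-derived tumours, against 1496 at the lowest, 3802 at the median and 9856 at the highest of the primary tumours, and 229.7 in the culture. It was lower in every line-derived tumour (log2 fold change -7.42, SE 0.67, limma adjusted p = 2.3e-08). Cyp26a1, which degrades retinoic acid, stood at 29.9, 16.9, 49.7 and 179 in the line-derived tumours, against 0 at the lowest, 0 at the median and 7.14 at the highest of the primary tumours, and 0 in the culture. Crabp1, a retinoic acid binding protein gene, was listed at 0 in all 9 primary tumours and in the culture and stood at 244, 164, 289 and 258 in the line-derived tumours. Aldh1a2, a stromal relative of Aldh1a1, did not pass (log2 fold change 0.59, SE 1.10, limma adjusted p = 0.72), and its direction turned under quantile normalization (-0.85). Leaving out line-derived tumour 1 left 3 members higher, and edgeR called 4 higher and 2 lower.

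The genes with the largest rises included several matrix genes. They are the 10 largest log2 fold changes among genes that passed, did not overlap and averaged 100 or more in line-derived tumours, and 9 of them reached 10 in fewer than 4 primary tumours. Those 9, all but Lrmp, were tested with the help of the line-derived tumours, and their tests are not read here. Besides Lum, the lumican gene (log2 fold change 10.32, SE 1.68), the 10 included Tnn, which encodes tenascin N. It stood at 7823, 2449, 7131 and 11095 in the line-derived tumours, against 0 at the lowest, 3.16 at the median and 34.97 at the highest of the primary tumours, and 0 in the culture (log2 fold change 10.73, SE 0.84). Eln, the elastin gene, and Aspn, which encodes the matrix protein asporin, were higher (log2 fold change 10.25, SE 1.78 for Eln, and 10.01, SE 1.26 for Aspn). So were Sfrp2, another secreted Wnt inhibitor gene (9.87, SE 1.47), and Cpxm1, a carboxypeptidase family gene (10.55, SE 1.23). C1qtnf3, a secreted complement-related gene, had a log2 fold change of 11.76 (SE 1.31). Trh, the thyrotropin releasing hormone gene, stood at 1044.2, 3129, 918 and 979 in the line-derived tumours and was listed at 0 in all 9 primary tumours and in the culture.

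Serpinb3a, a protease inhibitor gene of squamous epithelium, stood at 10190.0, 17317, 6317 and 7052 in the line-derived tumours, against 0 at the lowest, 0 at the median and 676 at the highest of the primary tumours, and 0 in the culture (log2 fold change 11.24, SE 1.88). Lrmp, a lymphoid membrane protein gene, stood at 3823, 9338, 5419.7 and 4904 in the line-derived tumours, against 0 at the lowest, 4.22 at the median and 45.9 at the highest of the primary tumours, and 415 in the culture (log2 fold change 9.94, SE 1.44, limma adjusted p = 1.7e-05). Of these 10 genes only Lrmp was above the primary range in the culture.

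The 10 largest falls, chosen in the same way, included genes named above. Besides Upk3b, Upk1b, Snx31 and Shh, they included Vsig2, an immunoglobulin domain gene, which was listed at 0 in all 4 line-derived tumours and in the culture, against 1653 at the lowest, 2450.5 at the median and 3937 at the highest of the primary tumours (limma adjusted p = 1.9e-06). Aldh1a7, a relative of Aldh1a1, stood at 5.97, 6.52, 21.1 and 0 in the line-derived tumours, against 788 at the lowest, 3587 at the median and 5423 at the highest of the primary tumours, and 54.2 in the culture (log2 fold change -9.05, SE 0.62, limma adjusted p = 2.4e-10). Gsdmc2, a gasdermin gene, stood at 3.58, 37.8, 18.6 and 75.02 in the line-derived tumours, against 3114 at the lowest, 6349.6 at the median and 11914 at the highest of the primary tumours, and 20.54 in the culture (log2 fold change -8.01, SE 1.398, limma adjusted p = 0.00014), and its relative Gsdmc3 fell too (log2 fold change -8.19, SE 1.47, limma adjusted p = 0.00019). Such gasdermin copies are alike in sequence, so the split of reads between them is uncertain. Capn13, a calpain gene, fell (log2 fold change -9.86, SE 1.47, limma adjusted p = 2.6e-05), and Cd200r3, a receptor family gene, fell (log2 fold change -7.89, SE 1.22, limma adjusted p = 3.7e-05).

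The culture already stood beyond the primary range in part of these differences. Of the 2943 genes that were higher in the line-derived tumours, the culture was above all 9 primary tumours in 1111 (37.8%), within their range in 1657 (56.3%) and below it in 175 (5.9%). Over all genes tested it was above in 22.3% and below in 13.9%. Of the 921 genes that were lower, it was below in 474 (51.5%), within in 413 (44.8%) and above in 34 (3.7%). The counts share the primary tumours with the comparison itself, and the culture is 1 library with no replicate. The culture was listed at 0 in 423 of the higher genes. Under quantile normalization, with its own calls, the culture was above the range in 667 of the higher genes and below it in 798 of the lower genes.

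**Figure D4:**
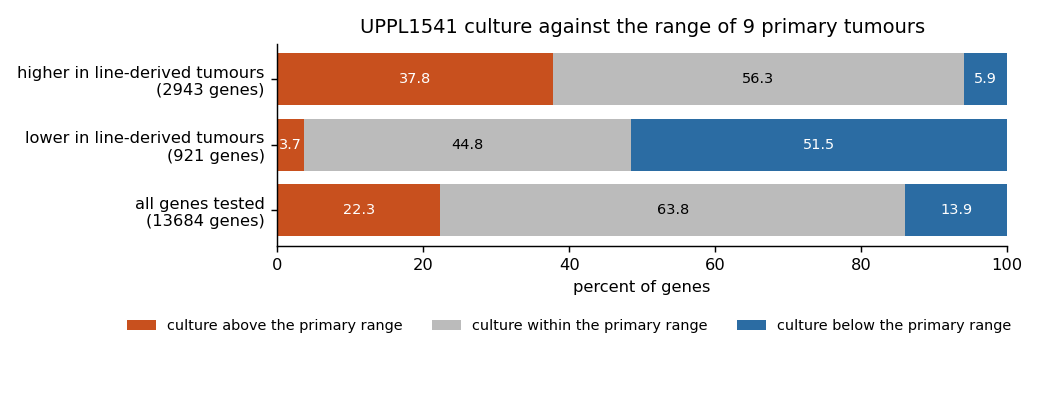
Percent of genes (x axis) for which the UPPL1541 culture lay above, within or below the range of the 9 primary tumours, for the genes higher and lower in line-derived tumours and for all genes tested. The culture was above in 37.8% of the higher genes and below in 51.5% of the lower genes, against 22.3% and 13.9% of all genes tested.

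By list, the culture was below the primary range in part of the genes that fell. It was below the primary range in 5 of the 10 umbrella cell genes that fell, 9 of the 11 luminal genes and 11 of the 16 NRF2 genes, where it was below in 51.5% of all lower genes. It was above the range in 2 of the 19 matrix genes, 1 of the 18 macrophage genes and 0 of the 9 class II genes that rose. Of all higher genes it was above in 37.8%. Some falls were not in the culture. Pkhd1, the gene of recessive polycystic kidney disease, stood at 5.97, 0, 0 and 0 in the line-derived tumours, against 11.3 at the lowest, 154 at the median and 849 at the highest of the primary tumours, and 245 in the culture (log2 fold change -5.95, SE 1.24, limma adjusted p = 0.00082). Gldc, a glycine cleavage enzyme gene, stood at 11.9, 0, 13.7 and 0 in the line-derived tumours, against 79.5 at the lowest, 444 at the median and 928 at the highest of the primary tumours, and 193 in the culture (log2 fold change -6.57, SE 1.15, limma adjusted p = 0.00014). In both genes the culture stood inside the primary range and every line-derived tumour below it. Serpinb9b, Ppp1r9a and Rgs11 showed the same order (log2 fold change -5.21, limma adjusted p = 0.0019, then -5.07, 0.0046, and -4.93, 7.9e-05).

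The primary tumour that shares the line's number, UPPL1541, did not stand out as the nearest to the line-derived tumours. It lay nearer to their mean than to the mean of the other 8 primary tumours in 8.8% of the higher and 4.0% of the lower genes. For the other primary tumours that share ran from 8.7% (UPPL1595) to 26.2% (UPPL1591) of the higher genes and from 2.8% (UPPL1695) to 25% (UPPL1595) of the lower genes. Over all 13684 genes tested the share was 28.4% for UPPL1541 and 30.1 to 42.3% for the others. UPPL1541 was the primary tumour farthest towards the line-derived tumours in 138 (4.7%) of the higher and 20 (2.2%) of the lower genes, and in 5.0% of all genes tested. Lrrc15, a fibroblast gene, was among those with the largest changes. It stood at 4932, 1198, 5635 and 6577 in the line-derived tumours, against 67.0 in tumour UPPL1541. Aspn, Abi3bp and Itgbl1, all matrix-related genes, and Gpr81, a lactate receptor gene, were the others named by that rule, at 26.3, 20.3, 5.98 and 172 in tumour UPPL1541, in that order. Aspn, Abi3bp and Itgbl1 reached 10 in fewer than 4 primary tumours, so their tests are not read here. Itgbl1 was listed at 0 in 6 of the 9 primary tumours, so the place of UPPL1541 in it rests on low values.

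The same contrast in the BBN tumours differed from that in UPPL for some genes. The interaction, which is the UPPL change minus the BBN change in 1 limma fit, passed in 1335 genes (9.76%), of which 1193 were positive (8.72%) and 142 negative (1.04%). That count rests on 2 BBN line-derived tumours, and it was 258 without the first and 900 without the second. Under quantile normalization it was 723. Lrmp, which rose in UPPL, stood at 0 and 26.96 in the BBN line-derived tumours, against 0 at the lowest, 31.2 at the median and 423 at the highest of the BBN primary tumours (interaction 12.23 on the log2 scale, SE 2.34, limma adjusted p = 0.0022). Expi, a protease inhibitor gene of secretory epithelium, stood at 1172, 1478, 934 and 672 in the line-derived tumours, against 0 at the lowest, 0 at the median and 13.3 at the highest of the primary tumours, and 1984 in the culture. It was listed at 0 in both BBN line-derived tumours (interaction 12.49 on the log2 scale, SE 2.35). Expi reached 10 in fewer than 4 UPPL primary tumours, so its test is not read here. Col10a1, the type X collagen gene, stood at 444, 186, 419.7 and 470.4 in the line-derived tumours, against 0 at the lowest, 7.18 at the median and 41.1 at the highest of the primary tumours, and 0 in the culture, and was listed at 0 in both BBN line-derived tumours as well (interaction 11.99 on the log2 scale, SE 2.18, limma adjusted p = 0.0015).

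In the other direction, Gcnt3, a mucin glycosylation enzyme gene, stood at 3.58, 3.91, 33.5 and 1.19 in the line-derived tumours, against 169.8 at the lowest, 1288 at the median and 1693.6 at the highest of the primary tumours, and 18.7 in the culture. In the BBN pair it stood at 127 and 65.0 in the BBN line-derived tumours, against 9.95 at the lowest, 88.4 at the median and 525.6 at the highest of the BBN primary tumours (interaction -6.91 on the log2 scale, SE 1.58, limma adjusted p = 0.0081). Cyp2b10, a P450 gene of the xenobiotic response, and Tslp, an epithelial cytokine gene, also had negative interactions (-7.98, limma adjusted p = 0.011, and -9.02, 0.035). Of the matrix list 1 of 19 had an interaction past the threshold, and of the class II list 0 of 10 and of the umbrella cell list 0 of 12. The 1 matrix gene was Fap, a member left aside above, so its test is not read here. The median changes in UPPL and BBN were -4.08 and -3.97 for umbrella cell genes and 3.40 and 3.27 for class II genes. For matrix genes they were 6.99 and 3.11, and with so few BBN line-derived tumours a missed threshold does not show that these changes are alike. Hypoxia and glycolysis genes had 9 of 21 members with a negative interaction, against 1.04% of all genes. The list's median change came to -0.18 for UPPL against 1.44 for BBN. In BBN 12 of the 21 rose, against 241 of 13684 genes in all, and those calls rest on 2 BBN line-derived tumours. In UPPL 4 of the 21 (19%) fell, where 6.73% of all genes fell. Among the 4 were Hk1, a hexokinase gene (log2 fold change -0.80, limma adjusted p = 0.018), and Adm, the adrenomedullin gene (-2.46, 0.026).

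**Figure D5:**
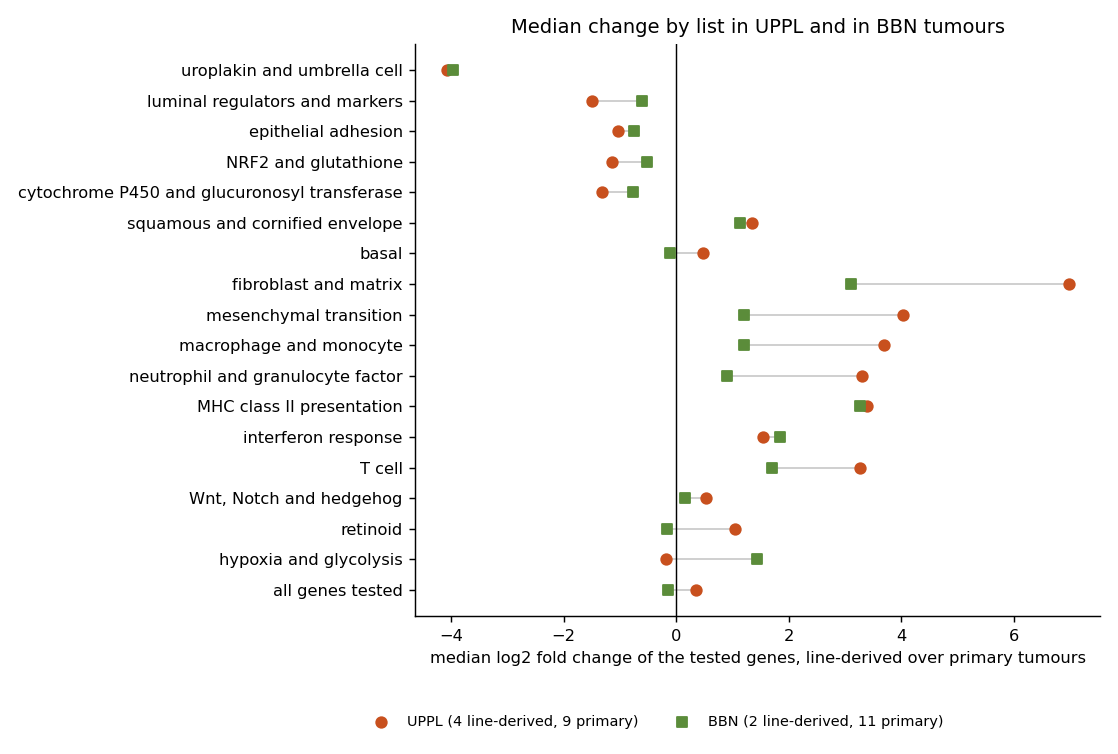
Median log2 fold change, line-derived over primary tumours (x axis), of the tested genes of each list in UPPL (circles) and in BBN (squares) tumours. Umbrella cell and class II genes lie close together in the 2 models, and hypoxia and glycolysis genes differ, at -0.18 in UPPL and 1.44 in BBN.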

How the data were processed

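Library values for 36 mouse libraries were taken from 1 deposited table. Per the submitters' processing notes it was made with RSEM, Picard 1.64, SAMtools and the mm9 genome, and per the labels' protocols from RNeasy RNA and TruSeq Stranded mRNA libraries. Whether counting used strand is not given in the sources used here. The deposited signal is a gene estimate that the authors scaled per library to a 75th percentile of 1000 among values above 0, measured here as 998.9 to 1000. Divided by the most frequent spacing of low values, 91.3 to 96.0% of the values other than 0 came within 0.02 of whole reads, which gave 9.29 to 17.93 M reads per library.

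The log2(value + 1) scale was used with limma 3.58.1 (with a variance trend, R 4.3.3), in 1 model of the 26 UPPL and BBN tumours, on the 13684 genes with at least 10 in at least 4 of the 13 UPPL tumours. A fold change is on that log2(value + 1) scale, and for genes with values at or near 0 it can differ from the edgeR fold either way. Serpinb3a changed by 11.2 on this scale and 6.8 with edgeR, and Trh by 10.4 and 13.3. The threshold was 0.05 after Benjamini-Hochberg adjustment across all genes tested. The fit of recovered reads used the quasi-likelihood test of edgeR 4.0.16 on the authors' values turned back into counts. The functions were tested on simulated data.

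Groups were taken from the sample titles. The 36 gene lists (621 genes, of which 611 were in the table and 521 tested), the tests and the alternatives were chosen with earlier results of these data known. Lists are described by counts and medians only. Genes were named by rule: Trp53 and Upk3a, the 10 largest rises and falls with no overlap and a mean of at least 100, the 5 each way that the culture does not share, the first 2 genes of each described list with up to 3 more of the smallest adjusted p, the 3 largest interactions each way, and 5 genes in which UPPL1541 lies beyond the other primary tumours. Genes outside it were chosen after their values were seen, and predicted genes and receptor segments were skipped. Alternatives were quantile and median-of-ratios scaling, edgeR, array weights, no trend, a pseudocount of 10, a filter at 50 or none, the 13 UPPL tumours alone, leaving out each library, and for the culture a midpoint in place of the range. Leaving out UPPL1595 and UPPL1597 together was added after seeing the data. Promoter windows came from RefSeq (GRCm38.p6), and 10804 of 13684 tested genes had one. Python 3.11.15, numpy 2.4.6, pandas 2.3.3 and matplotlib 3.10.9 were used. No coordinates of the files' build were used. Part of the genotype label and the results of some genes are not reported here.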

Additional observations from a re-analysis of the deposited data

Results flagged for a closer look

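Within a group, 1 library can lie far from the others. Of 72 list levels tested for this, 6 did so, and of 226 groups of named genes 35, where chance alone marks about 1 in 20 groups. Among list levels, primary tumour UPPL1694 was apart in basal genes (9.33), NRF2 and glutathione genes (9.55) and ERBB and FGF genes (6.09), low in each. Line-derived tumour 1 was apart in skeletal muscle genes (5.27), tumour 3 in interferon genes (9.19) and tumour 2 in retinoid genes (7.95).

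The single genes fall mostly in line-derived tumour 2 and primary tumour UPPL1694. Line-derived tumour 1 stood apart from its group in Pkhd1 (6.0), Lamb3 (2602.2) and Tslp (4.8), as deposited values. Line-derived tumour 2 stood apart from its group in C1qtnf3 (1906.1), Trh (3129.1), Aspn (1697.5), Cyp26b1 (138.2), Postn (14688.4), Fbn1 (1800.5), Col5a1 (3629.7), Cdh11 (655.8), S100a8 (15108.2), Axin2 (66.5), Col10a1 (186.4), Lrrc15 (1198.2) and Gpr81 (6.5), as deposited values. Line-derived tumour 3 stood apart from its group in Capn13 (16.1) and Gata3 (492.9), as deposited values. Primary tumour UPPL1591 stood apart from its group in Serpinb3a (676.1), Upk3b (452.6) and Upk1a (165.9), as deposited values. Primary tumour UPPL1595 stood apart from its group in Krt19 (3953.2), Vim (112.3) and Zeb1 (0), as deposited values. Primary tumour UPPL1597 stood apart from its group in F11r (3671.8), as deposited values. Primary tumour UPPL1612 stood apart from its group in C1qtnf3 (34.6), as deposited values. Primary tumour UPPL1694 stood apart from its group in Aldh1a7 (788.2), Tbx3 (8528.5), Gsta4 (9855.1), Krt5 (10615.4), Krt14 (2248.8), Col1a2 (8.0), Axin2 (3228.8) and Lgr5 (1644.4), as deposited values. Primary tumour UPPL1695 stood apart from its group in Cyp26a1 (7.1), as deposited values. In Pkhd1, Tslp, Gpr81 and Capn13 every other line-derived tumour was listed at 0, and in Cyp26a1 every other primary tumour was. Each of these rests on 1 low value, and a value listed at 0 in a tumour does not show that the RNA was absent.

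The UPPL change differed from the BBN change, by the interaction term, most in Expi (12.49 on the log2 scale), Lrmp (12.23) and Col10a1 (11.99), where UPPL was the higher change. Expi reached 10 in fewer than 4 UPPL primary tumours, so its test is not read here. It was lower in Tslp (-9.02), Cyp2b10 (-7.98) and Gcnt3 (-6.91).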

How the results depend on the processing

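Of 101 named genes that passed, 90 kept their direction and stayed past the threshold under every alternative run, and 11 were lost under at least 1: 4 under quantile normalization, 2 under median-of-ratios scaling, 7 with edgeR, of which Lgr5 also turned, 2 in the 13 UPPL tumours alone, 2 without UPPL1595 and UPPL1597, 8 without at least 1 line-derived tumour and 2 without at least 1 primary tumour. Both the 101 and the 90 include genes that reached 10 in fewer than 4 primary tumours, such as Tnn and Cxcl9. The tests of such genes are not read here, so neither number is a count of calls that are read. The counts of genes higher and lower moved to 1763 and 1804 under quantile normalization, 1450 and 1712 with edgeR, and 4679 and 1769 with array weights. Leaving out 1 line-derived tumour gave 1988 to 2020 higher and 654 to 756 lower, and leaving out 1 primary tumour 2728 to 3079 and 817 to 985. Interactions numbered 723 under quantile normalization and 258 to 900 without 1 BBN line-derived tumour. The culture counts moved to 667 above and 798 below under quantile normalization. Trp53 turned to -0.65 under quantile normalization and ranged from 0.24 to 0.60 without 1 library. Directions also turned for Epcam (-0.21, edgeR), Krt5 (-0.41 with edgeR, and -0.15 without UPPL1694 in a range up to 0.47 without 1 library), Axin2 (-1.26 with edgeR, -0.36 under quantile normalization), Lgr5 (-0.70, edgeR) and Aldh1a2 (-0.85, quantile normalization). Stat2 turned to 0.037, 0.00 and 0.079 without line-derived tumours 1, 2 and 4, to 0.002 without UPPL1591 and to 0.15 without UPPL1695, with -0.38 without line-derived tumour 3. The cause of these shifts was not tested. No paired analysis was possible because the line-derived tumours are numbered 1 to 4 and the primary tumours carry other numbers, so the groups share none. The most frequent low value was 17 reads in UPPL1595 and UPPL1597, and 1 culture gives no error.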

Other observations

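Proliferation genes set the culture apart more than the tumours. Of 25 tested, 3 (12%) rose and 1 (4%) fell between the tumour groups, where 21.5% of all genes rose and 6.73% fell. Under quantile normalization, median-of-ratios scaling or edgeR, 0 were higher. The culture was above every primary tumour in 24 of the 25, with mean log2 levels of 9.75 to 9.94 in line-derived against 8.94 to 9.89 in primary tumours and 11.09 in the culture. Cholesterol synthesis genes stood at 10.18 to 10.54 in line-derived against 9.84 to 11.08 in primary tumours and 11.80 in the culture, with the culture above the range in 12 of 16. Fatty acid synthesis genes stood at 9.54 to 10.19 in line-derived against 9.64 to 10.97 in primary tumours and 11.83 in the culture.

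Single growth factor genes changed, while the list stayed near the share of all genes for rises. Of 19 ERBB and FGF genes, 16 were tested, 3 rose and 4 fell (median log2 fold change 0.05, against 0.35 for all genes tested). These are 18.8% and 25% of those tested, where 21.5% of all genes rose and 6.73% fell. Areg, the amphiregulin gene, averaged 262 in line-derived and 3045 in primary tumours (log2 fold change -3.21, limma adjusted p = 0.0014), and Ereg, the epiregulin gene, fell too (-2.52, 0.045). Fgfr1, a fibroblast growth factor receptor gene, averaged 2775 in line-derived and 35.9 in primary tumours (6.83, 5.8e-06), and the culture, at 560.2, was above every primary tumour. Among 26 Hox genes, 20 were tested. Hoxa13, a gene of the lower urinary tract, averaged 0.299 in line-derived and 202 in primary tumours (-7.12, 1.8e-05), and Hoxb9 averaged 195 in line-derived and 8.596 in primary tumours. Hoxb9 reached 10 in fewer than 4 primary tumours, so its test is not read here. Endothelial genes stood at 6.19 to 8.09 in line-derived against 5.20 to 7.69 in primary tumours and 2.12 in the culture, with 2 of 13 higher and 1 lower, and 0 and 2 under quantile normalization. As deposited that is 15.4% and 7.7%, near the 21.5% and 6.73% of all genes. The single genes named in this paragraph were chosen after their values were seen.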
